A study of Mus musculus with 4 samples.

Results

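Colony-stimulating factors are secreted proteins that keep myeloid cells alive and drive their growth and maturation. The genes described here are 6 of the 16416 genes in the expression table, chosen by symbol: the ligand genes Csf1 and Il34 and the receptor genes Csf1r, Csf2ra, Csf2rb and Csf3r. All 6 were found and all 6 passed the filter on low counts in each comparison. The rule names the genes and uses no threshold on their values, but it was set with earlier results of these data known.

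RNA was sequenced from fibroblasts that had grown out of the shoulder joint capsule of mice 1 week after the joint was immobilized, cultured to passage 2. There were 4 libraries, 1 per group: wild-type cells of C57BL6/J mice, untransfected miR-26a -/- cells, miR-26a -/- cells transfected for 24 h with 10 nM of a Silencer Negative Control siRNA, and miR-26a -/- cells transfected for 24 h with 10 nM of a double-stranded miR-26a mimic. They are called the wild-type, knockout, negative-control and mimic libraries below. All cells came from immobilized shoulders, so no unimmobilized reference is included, and the number of animals behind each culture is not given in the sources used here.

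CSF1, also called macrophage colony-stimulating factor, and IL-34 are ligands of the same receptor tyrosine kinase, the product of Csf1r, which macrophages and their precursors carry. Fibroblasts and other stromal cells are a known source of CSF1 in connective tissue, and keratinocytes and neurons are well-known sources of IL-34. GM-CSF binds the alpha chain made from Csf2ra, which signals together with the beta chain made from Csf2rb, and G-CSF binds the receptor made from Csf3r, which neutrophils carry.

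The miR-26a guide strand is shown because its seed, bases 2 to 8 in capitals, was searched for in the members' transcripts. The guide strand given in the labels has the same letters as mature miR-26a of RefSeq (GRCm38.p6), which is encoded at Mir26a-1 (chromosome 9, 119031811 to 119031832) and Mir26a-2 (chromosome 10, 126995543 to 126995564), both on the plus strand.
miR-26a-5p: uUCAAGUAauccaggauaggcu
The 7 bases complementary to this seed, TACTTGA, were absent from every annotated 3' untranslated region of all 6 genes in GENCODE M21 (GRCm38). These regions ranged from 145 to 2111 bases in 4 transcripts of Csf1, from 439 to 605 in 2 of Il34, from 654 to 1669 in 2 of Csf1r, from 593 to 602 in 2 of Csf2ra, from 256 to 1816 in 3 of Csf2rb and from 601 to 602 in 2 of Csf3r. The 7 bases were present for 1767 of 15649 genes of the table with such a region, 11.3%.

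Promoter windows from RefSeq (GRCm38.p6), from 250 bases before to 50 bases after the transcription start, were found for 3 of the 6 genes. All 3 are shown. These genes differed from each other in their values below: Csf1 was higher in both transfected libraries, Csf3r was higher in all knockout-derived libraries, and Csf2ra varied little. Whether the letters go with these values was not tested. Capitals mark matches, on either strand, to the letters searched: GAGGAA, a sequence bound by the myeloid factor PU.1, GGGNNTTTCC for NF-kB, TGANTCA for AP-1, TTGCNNAA for C/EBP, and TATAAA. The windows lie at chr3:107760420-107760719 on the minus strand for Csf1, chr19:61228369-61228668 on the minus strand for Csf2ra, and chr4:126024409-126024708 on the plus strand for Csf3r.
Csf1: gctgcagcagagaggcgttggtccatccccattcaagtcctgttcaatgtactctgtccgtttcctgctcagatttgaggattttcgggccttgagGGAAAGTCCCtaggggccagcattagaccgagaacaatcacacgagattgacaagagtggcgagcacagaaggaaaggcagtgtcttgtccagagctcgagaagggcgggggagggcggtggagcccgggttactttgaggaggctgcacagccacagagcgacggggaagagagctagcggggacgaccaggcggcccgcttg
Csf2ra: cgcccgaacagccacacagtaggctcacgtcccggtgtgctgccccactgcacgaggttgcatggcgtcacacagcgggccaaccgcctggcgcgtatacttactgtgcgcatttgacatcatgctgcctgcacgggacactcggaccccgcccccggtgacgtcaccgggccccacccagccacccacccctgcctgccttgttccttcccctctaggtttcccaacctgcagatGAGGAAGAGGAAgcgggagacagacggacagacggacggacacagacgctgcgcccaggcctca
Csf3r: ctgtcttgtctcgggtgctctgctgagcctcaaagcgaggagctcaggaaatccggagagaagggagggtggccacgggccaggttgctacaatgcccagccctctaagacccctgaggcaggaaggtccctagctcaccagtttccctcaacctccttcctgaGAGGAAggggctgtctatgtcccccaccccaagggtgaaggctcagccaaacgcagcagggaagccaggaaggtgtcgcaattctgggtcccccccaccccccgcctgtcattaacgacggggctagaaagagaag
The Csf1 window held 1 NF-kB match, on the opposite strand and beginning at base 97 of the window, and no match to the other letters. The Csf2ra window held 2 adjacent GAGGAA matches, at bases 237 and 243, and the Csf3r window held 1, at base 165. No matches overlapped. Of all 32851 windows of the same length, 28.3% held GAGGAA, 1.63% GGGNNTTTCC, 7.81% TGANTCA, 10.8% TTGCNNAA and 13.6% TATAAA. A match is a description of the letters and not evidence of binding.

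Depth was similar in the 4 libraries, with totals from 17598763 to 19392655 estimated counts. Without replicates no difference could be checked against spread within a group, and p-values are left out. Log2 ratios are printed with their exact conditional binomial (Clopper-Pearson) interval at 95% in parentheses. This interval covers counting error only and not the spread between cultures. Sequenced reads are also not independent molecules, so it may be too narrow even for counting error. A gene was called at a ratio of 2-fold or more with an interval that leaves out 0. The labels name fibroblasts, and the 14 fibroblast markers searched summed to between 13460 and 29240 TPM. Yet the 20 macrophage markers, a list without any of the 6 genes, summed to between 32810 and 34100 TPM in the 3 knockout-derived libraries. In wild type they summed to 23730 TPM. Lyz2 alone, named after its values were seen, held 18990.65 TPM in knockout and 14912.62 TPM in wild type, from counts with decimals. The sums of the lists are thus no measure of the share of each cell type. In such bulk samples, more or fewer cells of a type cannot be told apart from more or less RNA per cell. The 4 comparisons share libraries, so their ratios are not independent of each other.

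Csf1 was the most abundant of the 6 genes in every library except the knockout library, where Csf1r stood above it. Untransfected cells had 339.1 TPM of Csf1 (wild type) and 381.37 TPM (knockout), and transfected cells had 560.8 TPM (negative control) and 532.32 TPM (mimic). Both transfected libraries stood above both untransfected ones. Taking wild type first and then knockout, negative control and mimic, the counts behind these levels were 10844, 13194, 22016 and 19455, so that counting error was small. Csf1 ranked 451 by TPM among all genes in the wild-type library and 265 in the negative-control library.

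Il34, the other ligand gene of the same receptor, was far less abundant and was arranged differently. Its level was 34.02 TPM in wild type, whereas knockout, negative control and mimic had 10.74, 6.43 and 11.43 TPM. The wild-type library was the highest and the negative-control library the lowest. Counts were 451, 156, 100 and 167, in the same order. The level of Csf1 in TPM, which is scaled to transcript length, was 9.97 times that of Il34 in wild type, and 35.5, 87.2 and 46.6 times in knockout, negative control and mimic.

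Csf1r stood at 140.65 TPM in wild type, against 408.39, 441.23 and 425.26 TPM in knockout, negative control and mimic. The wild-type library stood apart, and the 3 knockout-derived libraries lay close together. The TPM of Csf1 was 2.41 times that of its receptor in the wild-type library, 0.934 times in the knockout library, and 1.27 and 1.25 times in the negative-control and mimic libraries.

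Of the 2 chains of the GM-CSF receptor, the alpha chain gene Csf2ra varied least among the members, with 49.78, 43.93, 39.18 and 38.73 TPM, wild type first and mimic last. The beta chain gene Csf2rb had 9.38 TPM in wild type, against 32.52, 33.01 and 31.65 TPM in knockout, negative control and mimic. Its TPM was 0.188 times that of Csf2ra in the wild-type library and between 0.74 and 0.843 times in the other 3. Reads of Csf2rb were shared out with Csf2rb2, a closely similar gene described below. The summed TPM of the pair was 21.43 in wild type, and 87.72, 96.5 and 91.01 in knockout, negative control and mimic. That sum was below Csf2ra in wild type and above it in the other 3. Csf3r was the least abundant member in every library, with 1.94, 4.19, 3.17 and 3.71 TPM from counts of 48, 112, 111 and 112.

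In order of level, the wild-type library ran Csf1, Csf1r, Csf2ra, Il34, Csf2rb and Csf3r. In the negative-control and mimic libraries Csf2rb stood above Il34 and the rest of the order was as in wild type. The knockout library had that same order apart from Csf1r, which stood before Csf1. The place of Csf2rb depends on how its reads were shared out with Csf2rb2.

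**Figure D1:**
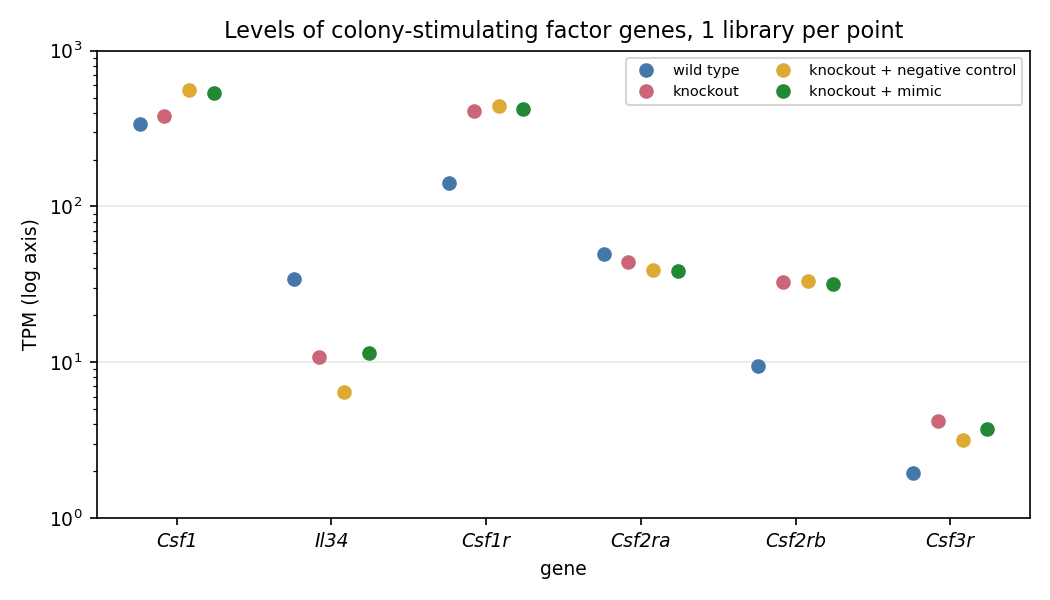
Deposited TPM (vertical log axis) of the 6 genes (horizontal axis), with 1 point per library and no replicates. Csf1r and Csf2rb are lowest in the wild-type library, at 140.65 and 9.38 TPM, and Il34 is highest there, at 34.02 TPM.

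The comparison of knockout with wild type set 1 culture of each genotype side by side. Genotype therefore cannot be told apart from other differences between the cultures. Csf1r, Csf2rb and Csf3r rose and Il34 fell past the 2-fold limit, and Csf1 and Csf2ra did not reach it. Thus 4 of 6 genes were called, beside 12.9% of 12803 measured genes, of which 5.9% were higher and 7.0% lower. The log2 ratio of knockout to wild type was 1.67 (1.62 to 1.72) for Csf1r, or 3.18-fold, and 98.2% of measured genes had a lower ratio. It was 1.92 (1.76 to 2.09) for Csf2rb. For Csf3r it was 1.22 (0.73 to 1.75), an interval whose lower end is below the 2-fold limit, at these low counts.

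Il34 had a log2 ratio of -1.51 (-1.79 to -1.26), a 2.86-fold lower level in the knockout library, with 3.32% of measured genes lower still. The ratio of Csf1 was 0.29 (0.26 to 0.33), or 1.23-fold. Ratios here are of scaled counts, and from deposited TPM that of Csf1 was 0.17. That of Csf2ra was -0.07 (-0.22 to 0.08), an interval that holds 0. The ligands of Csf1r therefore had ratios of opposite sign, and the 2 chains of the GM-CSF receptor differed in whether they were called.

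**Figure D2:**
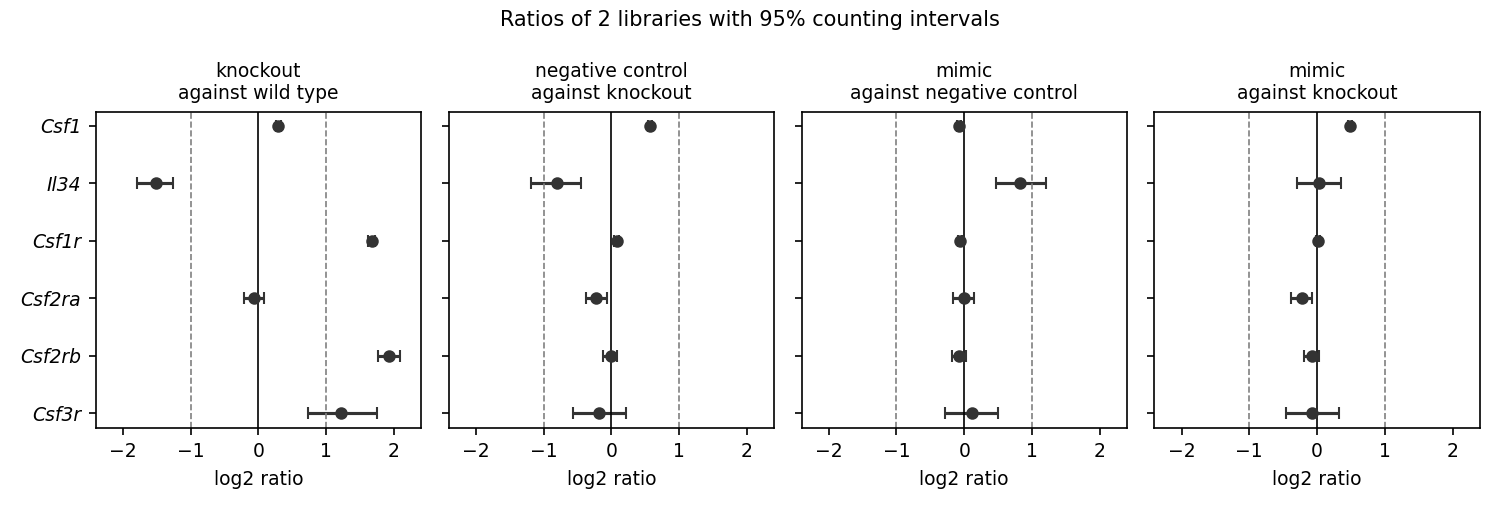
Log2 ratios (horizontal axes) of the 6 genes in 4 comparisons of 2 libraries, with bars for the 95% counting interval and dashed lines at 2-fold. In the knockout to wild-type panel 4 genes lie past a dashed line, and in the other panels none does.

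Macrophage markers were also higher in the knockout library. All 19 measured macrophage markers had a ratio above 0 in the knockout library, between 0.35 and 2.77 with a median of 0.97. Of these, 9 were called higher, beside 5.9% of all measured genes, whose median ratio was 0.01. Csf1r lay above 15, Csf2rb above 16 and Csf3r above 13 of the 19 markers. Csf2ra lay below all 19, although it is also a receptor gene of myeloid cells. Among the markers Cx3cr1, the fractalkine receptor, had a log2 ratio of 2.77 (2.47 to 3.10), Cd14, a lipopolysaccharide receptor, 2.31 (2.17 to 2.47), Fcgr1, an Fc receptor, 2.07 (1.86 to 2.30) and Itgam, the CD11b integrin chain, 1.75 (1.67 to 1.82). Cd163, a scavenger receptor of resident macrophages, had 5 counts in wild type and 0 in knockout. A count of 0 allows up to 3.69, the upper end of its 95% interval. The part of macrophage content in the receptors' ratios was not tested.

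Fibroblast markers were below 0 for 12 of 14 measured genes. Of these 14, 6 were called lower and none higher, beside 7.0% lower and 5.9% higher over all measured genes. Their median log2 ratio was -0.93, with a range from -2.67 to 0.60. Lum, a small proteoglycan, had a ratio of -2.67 (-2.88 to -2.48), Dpt, a matrix protein, -2.60 (-2.75 to -2.46), Fap, a surface protease, -2.07 (-2.29 to -1.87) and the collagen gene Col3a1 -1.58 (-1.59 to -1.56). Il34 lay 0.58 below the median of these markers and above 4 of the 14. Csf1 lay 1.22 above that median and above 13 of the 14. The part of fibroblast content in the ratios of the ligand genes was not tested.

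**Figure D3:**
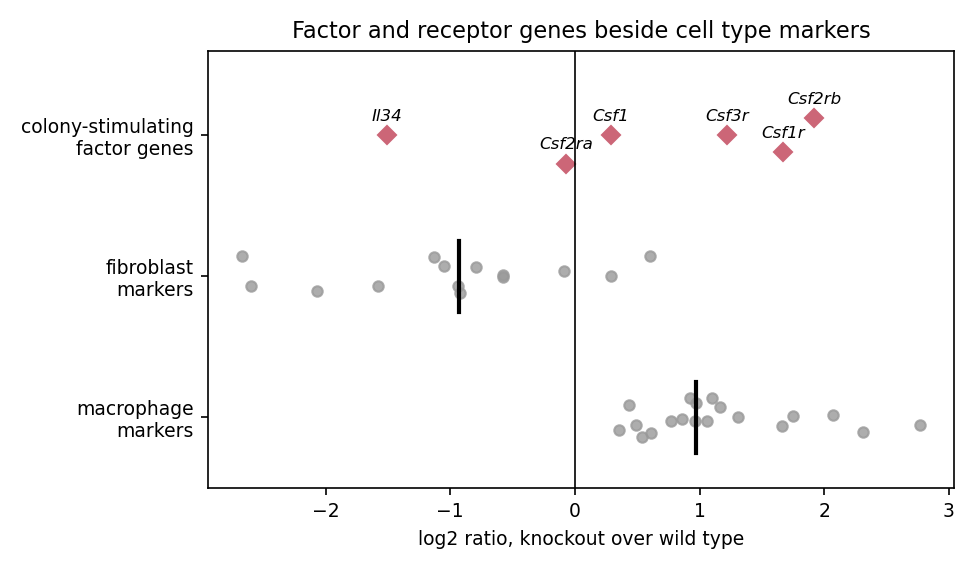
Log2 ratio of knockout to wild type (horizontal axis) for the 6 genes (diamonds), 14 fibroblast markers and 19 macrophage markers (points, vertical position within a row is arbitrary), with a line at each list's median. Csf1r, Csf2rb and Csf3r lie within the range of the macrophage markers, from 0.35 to 2.77, and Csf1, Csf2ra and Il34 lie below it.

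Csf3r is a gene of neutrophils, but markers of these cells were near the limit of detection. None of the 5 neutrophil markers found by symbol, of 12 in the list, reached 1 CPM, and they summed to between 0.86 and 2.59 TPM. Mpo, Camp and Ngp, which encode granule proteins, were at 0 counts in the wild-type library, and Camp was at 0 in the knockout library. Of the dendritic cell markers 2 were measured in this comparison, with 1 called lower, and Xcr1, Clec9a and Ccr7 were at 0 in both libraries. Itgax, the CD11c integrin chain, had a ratio of 0.66 (0.51 to 0.81), and Zbtb46, a transcription factor of these cells named after its values were seen, was the lower one, at -1.28 (-1.93 to -0.70) from 82 and 33 counts. The list of osteoclast markers, cells that need CSF1 to form, had a median ratio of 0.02 over 6 measured genes. Tnfrsf11a, the receptor RANK, was called higher there, at 1.40 (1.24 to 1.56), whereas the protease Ctsk had -0.66 (-0.72 to -0.60) and the phosphatase Acp5 -0.95 (-1.25 to -0.66). Nfatc1, a transcription factor of osteoclast formation, had 0.28 (0.15 to 0.41). Of the lymphocyte markers 1 was measured, Ptprc, the pan-leukocyte phosphatase CD45, at 0.85 (0.77 to 0.93). Of 4 endothelial markers measured 1 was called higher and 1 lower, and Vwf had 0.51 (0.33 to 0.71). Over all measured genes 12.9% were called in this comparison, and these lists held few measured genes.

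The beta chain is encoded by a pair of closely similar neighbouring genes in the mouse, Csf2rb (chromosome 15, 78325800 to 78351001, GRCm38.p6) and Csf2rb2 (chromosome 15, 78282507 to 78305721), of which Csf2rb2 makes a chain for IL-3. Their estimated counts had decimals that summed to a whole number, within 0.005, in all 4 libraries. The counts were 373.56 and 469.44 for wild type, 1406.88 and 2328.12 for knockout, 1565.54 and 2933.46 for negative control and 1394.13 and 2555.87 for mimic, Csf2rb first. Reads of the pair were thus shared out between the genes, and the value of either alone is uncertain. The sums were 843, 3735, 4499 and 3950 reads. Csf2rb was given 44.3% of them in wild type, against 37.7%, 34.8% and 35.3% in knockout, negative control and mimic.

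For the summed pair the log2 ratio of knockout to wild type was 2.16 (2.05 to 2.27), or 4.46-fold, a quantity that does not depend on how reads were divided within the pair. Csf2rb2 alone had 2.32 (2.18 to 2.47). The wild-type library was the lowest for the sum and for each gene.

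**Figure D4:**
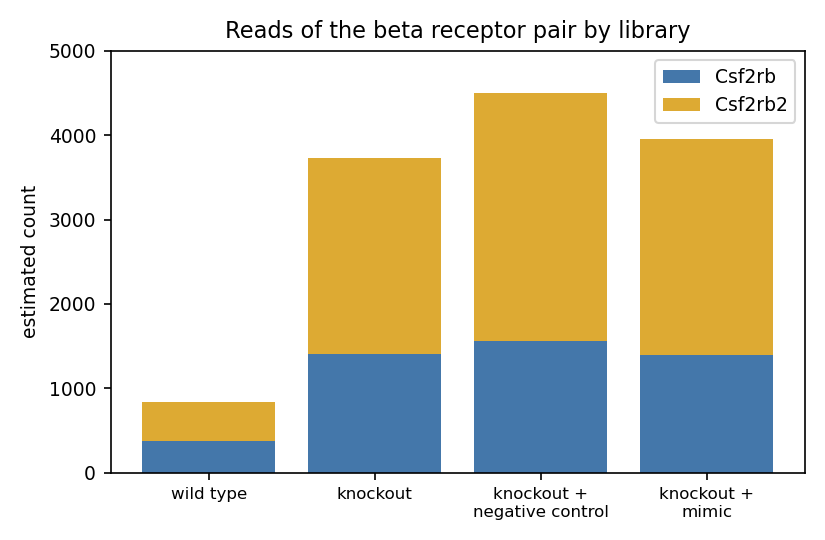
Estimated counts (vertical axis, from 0) of Csf2rb and Csf2rb2 stacked for each library (horizontal axis). The stack reaches 843 for wild type and between 3735 and 4499 in the other 3 libraries.

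Transfection with the negative control was compared with the untransfected knockout library to show what the procedure itself went with. None of the 6 genes reached 2-fold, beside 1.01% of 12532 measured genes. Csf1 had a log2 ratio of 0.57 (0.54 to 0.60), or 1.49-fold, above 98.6% of measured genes and above all 19 macrophage and all 14 fibroblast markers measured. Il34 had -0.80 (-1.18 to -0.44), with 1.53% of measured genes lower. The macrophage markers had a median of 0.03 and the fibroblast markers of -0.14, the latter with 2 of 14 called lower. Csf1r had 0.08 (0.04 to 0.11), Csf2ra -0.22 (-0.37 to -0.06) and Csf3r -0.18 (-0.57 to 0.21). Csf2rb had -0.01 (-0.12 to 0.09), and the summed pair 0.10 (0.04 to 0.17).

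The comparison of the mimic with the negative control looks at the return of miR-26a to cells that lack it. Again none of the 6 genes reached 2-fold, beside 1.21% of 12512 measured genes. Il34 stood higher with the mimic, at 0.83 (0.47 to 1.21), above 98.6% of measured genes. It also lay above all 14 fibroblast markers, which had a median of 0.20 and ranged from -0.24 to 0.81. The top of that range lay within the interval of Il34. Csf1 had -0.08 (-0.11 to -0.05), Csf1r -0.06 (-0.09 to -0.03), Csf2ra -0.01 (-0.16 to 0.15), Csf2rb -0.07 (-0.18 to 0.03) and Csf3r 0.11 (-0.28 to 0.50). The 2 intervals of Csf1 and Csf1r left out 0, but the ratios were small.

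Against the untransfected knockout library the mimic library gave another picture for the ligands. None of the 6 genes was called, beside 0.734% of 12536 measured genes. Il34 had 0.03 (-0.29 to 0.35) with this reference, as its level in the mimic library was close to that in untransfected knockout cells and above that in the negative-control library. Csf1 had 0.49 (0.46 to 0.52), or 1.41-fold, again above all 19 macrophage and all 14 fibroblast markers. The receptors had ratios of 0.01 (-0.02 to 0.05) for Csf1r, -0.22 (-0.38 to -0.07) for Csf2ra, -0.08 (-0.19 to 0.03) for Csf2rb and -0.07 (-0.46 to 0.32) for Csf3r. The mimic library thus held 425.26 TPM of Csf1r, 31.65 TPM of Csf2rb and 11.43 TPM of Il34, where wild type had 140.65, 9.38 and 34.02 TPM.

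Of the related ligand genes 2 were measured in knockout against wild type and neither was called. Of the related receptor genes 4 were measured and 2 were called higher, Csf2rb2 (described above) and Ptprz1. Over all measured genes 12.9% were called. Csf3, the gene of G-CSF, had 1 count in the negative-control library and 0 in each of the others, where a count of 0 allows up to 3.69. Csf2 and Il3 were searched for by symbol and were not found. Kitl, the ligand of the related receptor Kit, had 13.91, 14.56, 17.21 and 17.22 TPM in the wild-type, knockout, negative-control and mimic libraries, and Flt3l had 5.66, 4.67, 4.52 and 5.19 TPM. Il3ra, the alpha chain of the IL-3 receptor, had 28.53 TPM against 36.21 TPM in wild type, a log2 ratio of -0.28 (-0.49 to -0.07), and like Csf2ra it was not called although its beta chain partners were. Sdc1 and Ptprz1 encode further proteins that bind IL-34. Sdc1 had 155.04 and 173.35 TPM, and Ptprz1, named after its values were seen, was called higher from 3 and 19 counts, at 2.33 (0.91 to 5.07).

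Genes that act downstream of Csf1r were called in part. Of 22 measured, 9 were higher in the knockout than in the wild-type library and 1 lower, with a median log2 ratio of 0.35. Over all measured genes 5.9% were called higher and 7.0% lower. The adaptor Dok2 had 1.55 (1.29 to 1.83), the phosphatase Ptpn6 1.53 (1.43 to 1.64), the adaptor Gab3 1.46 (1.00 to 1.97) and the phosphoinositide kinase subunit Pik3cg 1.19 (1.06 to 1.33). The lower one was the kinase Fgr, named after its values were seen, with 30 and 4 counts and a ratio of -2.62 (-4.86 to -1.39). None of the list was called in the other 3 comparisons, where between 0.734% and 1.21% of all measured genes were.

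Genes of JAK-STAT signalling downstream of the GM-CSF and G-CSF receptors had a median of -0.27 over 14 measured. Of these, 1 was called higher and 1 lower, near the share of 12.9% called over all measured genes. The higher one was Bcl2a1b, a survival gene of a family of near-identical copies whose value is therefore uncertain, at 430.8 TPM with the knockout against 106.64 TPM with the wild type. The feedback inhibitors Socs2 and Socs3 had ratios of -0.94 (-1.17 to -0.71) and -0.59 (-0.74 to -0.44), and the kinase Pim1 0.49 (0.28 to 0.72). Cish, a related inhibitor named after its values were seen, was the lower one, at -1.44 (-2.14 to -0.84).

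Transcription factors known to act on Csf1r or in the myeloid lineage went both ways. Of 16 measured, 2 were called higher and 1 lower, with a median of 0.11, beside 12.9% of all measured genes called. Ikzf1 and Fli1, factors of blood cells, had ratios of 1.13 (0.95 to 1.32) and 1.10 (0.92 to 1.29). Runx1 was lower, at -1.03 (-1.12 to -0.95). Irf8, a factor of monocyte development, was just under the limit at 1.00 (0.87 to 1.13). Spi1, which encodes PU.1 and was named after its values were seen, had 101.35, 180.17, 202.37 and 171.8 TPM in the wild-type, knockout, negative-control and mimic libraries and a ratio of 0.96 (0.85 to 1.07).

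Inflammatory genes that can induce CSF1, with related cytokines, had a median of -0.12 over 10 measured in the same comparison. Of these 10, 1 was called higher and 2 lower, beside 5.9% and 7.0% of all measured genes. Tnf, a cytokine of macrophages, was called higher, at 1.56 (1.21 to 1.94). Tnfsf11, which encodes RANKL, the partner of CSF1 in osteoclast formation, was called lower, at -2.32 (-2.97 to -1.79), and so was the interleukin-1 receptor gene Il1r1, at -1.70 (-1.82 to -1.58). Hif1a, the hypoxia factor, had -0.57 (-0.62 to -0.52). Between the negative-control and the knockout library neither Csf1 nor any gene of this list was called, beside 1.01% of all measured genes. Hif1a had a ratio of -0.80 (-0.86 to -0.74) there, and Csf1 0.57. Between the mimic and the knockout library Hif1a had -0.02 (-0.07 to 0.03) and Csf1 0.49 (0.46 to 0.52). A link between these genes was not tested. In the wild-type, knockout, negative-control and mimic libraries Il1a had 1, 1, 1 and 0 counts and Il1b 1, 2, 2 and 0. Both were thus near the limit of detection in every library, and the libraries cannot be told apart for them.

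Likeness of pattern was measured as the root mean square difference of log2(TPM + 1), centred on the mean of the 4 libraries, over 9665 genes with at least 5 TPM in every library. With 4 points many genes match closely, so this is a description only. Nearest to Csf1r were Lyl1, a transcription factor of blood cells, at 0.029, Itgam at 0.030, Tbxas1, thromboxane synthase, at 0.041, Milr1 at 0.050 and Sema4d at 0.051. Nearest to Csf2rb were Itgam and Lyl1, both at 0.041, then Slamf9 at 0.045, and Csf1r itself and Trf, transferrin, at 0.057. Nearest to Il34 were Mtss2 at 0.042, Edil3 at 0.102, Serpinb1a at 0.105, Sertad4 at 0.117 and Aoc3 at 0.122. Nearest to Csf1 were Plk3, a stress-response kinase, at 0.045, LOC115489417 at 0.061, Chchd4 at 0.062, Clcn3 at 0.063 and Shld1 at 0.074. Csf2ra, whose levels varied little, had Tpd52l2, Arid4b, Mul1, Fam216a and Cul4b within 0.014. Csf3r was under 5 TPM and was not compared.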

How the data were processed

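Each of 4 mouse cultures gave 1 RNA-seq library, assigned to its group by its labels. Per the submitters' processing notes, FastQC, HISAT and Bowtie2 were used with builds GRCm38.p6 and mm10. Not given in the sources used here are the tool that counted reads, its annotation and its strand setting. The authors deposited estimated counts, not scaled by library size per the file headers, of which 4.99% to 5.28% per library have decimals. They also deposited TPM, scaled within each library per the file headers. Another 8 columns of other units and 1 table of the authors' comparisons were not used.

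Counts were scaled with TMM factors (edgeR 4.0.16, R 4.3.3) of 0.978 (wild type), 1.00 (knockout), 1.02 (negative control) and 0.997 (mimic). For log2 ratios 1 count, in proportion to library size, was added. Measured genes had 1 CPM or more in either library. Counts were rounded to whole numbers for intervals. The code for ratios, intervals and calls was tested on simulated Poisson counts. These held no spread between cultures and no reads shared between genes, so the test does not bear on either. Spreadsheet dates in place of 26 symbols were restored through Entrez identifiers, of which 16369 were found in the RefSeq table.

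The 6 genes and the lists were chosen with earlier results of these data known. List genes named are up to 4 with the largest absolute ratio of knockout to wild type at 5 TPM or more in either library, and markers at 0. For likeness, the 5 nearest genes were named. Alternatives were total-count scaling, DESeq2 1.42.0 size factors, deposited TPM with a pseudocount of 0.1, a prior of 0.25, filters of 5 CPM and none, and a 1.5-fold limit. Python 3.11.15 with scipy 1.17.1, pandas 2.3.3, numpy 2.4.6 and matplotlib 3.10.9 was used.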

Additional observations from a re-analysis of the deposited data

How the results depend on the processing

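No paired analysis was possible because each group had 1 library, and for the same reason no library could be left out. In knockout against wild type 4 of the 6 genes were called under each of the 7 alternatives. The 1.5-fold limit and the absence of a filter can only add calls, so they could not have removed any. At a 1.5-fold limit 1 gene, Il34, was called in negative control against knockout (log2 ratio -0.80) and 1, also Il34, in mimic against negative control (0.83), where the 2-fold limit gave 0. Ratios near 0 changed sign. Csf2rb in negative control against knockout was 0.01 with total counts, 0.02 with deposited TPM and 0.10 for the summed pair, an alternative chosen after seeing the data. Csf2rb in mimic against knockout was 0.01 for the summed pair, and Csf2ra in mimic against negative control was 0.00 with DESeq2 size factors. The cause was not tested. Of 172 single-gene values under alternatives, 165 kept direction and call. A changed filter or limit leaves the ratio itself as it was, so direction could not differ under those settings. With deposited TPM the median log2 ratio of all measured genes in knockout against wild type was -0.11, against 0.01 with scaled counts. Of the listed genes 39 were called in that comparison. Total counts gave 41, deposited TPM 35 and a filter of 5 CPM 34, the 3 alternatives run for the lists. Over all measured genes the main setting called 1652 of 12803 there. Those alternatives called 1651 of 12779, 1639 of 12803 and 1112 of 11087, in the same order. Over all genes, the 2-fold rule called 127 in negative control against knockout, 151 in mimic against negative control and 92 in mimic against knockout. In the same order a filter of 5 CPM gave 38, 53 and 12, no filter gave 210, 222 and 159, and a 1.5-fold limit gave 462, 569 and 365. For knockout against wild type the 1.5-fold limit gave 3134 against 1652. The 7-base site was absent from all 6 genes. The 8-base site contains it and was thus absent of necessity, so it adds no check. Precision was lowest for Csf3r, with 48 to 112 counts, and for Il34, with 100 to 451.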
